A study of Mus musculus with 2 samples.

Results

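The pericentral group of hepatocytes consisted of 653 droplet barcodes, 344 from a wild-type (WT) liver library and 309 from a library of livers that lacked miR-33 in hepatocytes (HKO), out of 1961 barcodes that passed the hepatocyte criteria and 50078 barcodes in all. A hepatocyte barcode had at least 5000 unique molecular identifiers (UMIs, each counting 1 captured RNA molecule), at least 1% of them from Alb, over 2.5% and up to 25% from mitochondrial genes, under 0.06% from Glul, and fewer than 3 of 15 markers of other cell types. Each hepatocyte barcode received a zonation score, the UMIs of 4 pericentral genes (Cyp2e1, Cyp1a2, Cyp2c29 and Gulo) as a share of the UMIs of those 4 and 5 periportal genes (Cyp2f2, Hal, Ass1, Hsd17b13 and Sds). Within each library the hepatocyte barcodes were ranked by this score and divided into 3 equal groups, of which the one with the highest scores is the pericentral group and the one with the lowest scores the periportal group. The members were therefore chosen by measured values, and the 9 score genes are given here as a description only.

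Both libraries came from mouse livers digested by collagenase perfusion, with purified hepatocytes and sorted viable non-parenchymal cells mixed in equal parts before single-cell RNA sequencing on the 10x Genomics platform. From 8 weeks of age, littermates received a high-fat diet that lacked choline (CD-HFD) for 6 months. HKO mice carried miR-33 loxP/loxP alleles with an Albumin-Cre, so that deletion follows the activity of the Alb promoter, which is strong in hepatocytes, and WT mice served as controls on the same diet. No group on another diet or at another age was analysed here. Each library held the pooled cells of 3 livers and there was 1 library per genotype, so mice could not be told apart, no test between genotypes was possible, and no comparison here has a replicate check. The deleted miRNA is not counted by a poly(A)-primed library. Its host gene Srebf2 was counted at 26.8 UMIs per 1000000 (CPM) in WT members and 21.3 CPM in HKO members, which does not check the deletion, since the miRNA lies in an intron.

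Hepatocytes differ along the liver lobule between the portal tract, where blood enters, and the central vein, where it leaves. Pericentral hepatocytes receive Wnt and R-spondin signals from the endothelium of the central vein, and they are known for cytochrome P450 enzymes, xenobiotic conjugation, bile acid synthesis and, in the layer next to the vein, glutamine synthesis by Glul. Periportal hepatocytes are known for urea synthesis, gluconeogenesis and the breakdown of amino acids. In fatty liver disease, miR-33 is studied because it represses genes of cholesterol efflux and fatty acid oxidation.

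The score at which the group was cut differed between the libraries. In WT the lowest score inside the group was 31.43% and the highest outside was 31.25%, whereas in HKO the values were 15.15% and 15%. The median score was 58.2% in WT members and 69.3% in HKO members, and 201 WT members (58.4%) and 202 HKO members (65.4%) had a score of at least 50%. Barcodes under 3000 UMIs, which can hold free RNA, had a pooled score of 33.4% in WT and 40.5% in HKO. The WT cut therefore lay close to the share in the shallow barcodes of its own library. The HKO cut lay below the share in the shallow HKO barcodes. The lowest HKO member held 5 UMIs of the pericentral and 28 of the periportal score genes. How much free RNA sets the score of members near the cut was not tested.

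Among the score genes, at least 1 UMI of Cyp2e1, the ethanol-inducible P450, was found in 344 of 344 WT members and 308 of 309 HKO members, with a median level per barcode of 2863 and 3708 CPM. Pooled over members, Cyp2e1 stood at 4114 and 4610.3 CPM, Cyp2c29 at 378 and 340.1 CPM, Gulo at 199 and 153 CPM, and Cyp1a2 at 106 and 167 CPM in WT and HKO, respectively. The periportal score genes were still present among the members, with Cyp2f2 at 488 and 487 CPM and Ass1 at 913 and 943 CPM. These levels follow from the selection and do not check the label, for which genes outside the score are given below. The limit on Glul, which marks the layer next to the vein, left 1217 of 1252 WT and 981 of 1024 HKO barcodes at that step, and Glul, pooled over members, was at 110.3 and 73.1 CPM.

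Across the whole series, the WT library held 30078 barcodes and 130451427 UMIs and the HKO library 20000 barcodes and 52563185 UMIs. The round HKO number may be a preset cell number, which the sources used here do not state, so neither total is a count of cells and the barcodes under 3000 UMIs may be drawn differently in the 2 libraries. WT members had a median of 16360.5 UMIs and 3696 genes, and HKO members of 11765 UMIs and 2972 genes. Summed over members, the levels below rest on 7525649 WT and 4374945 HKO UMIs. The interval given after a ratio is an exact conditional binomial (Clopper-Pearson) 95% interval and covers counting error only and not the spread between mice. Whether the libraries share barcodes was not analysed here, and no doublet caller was run.

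Dividing the score into 9 equal steps per library, of which ninths 7 to 9 are the members, showed that the group was not uniform. The most pericentral ninth had a median score of 84.6% in WT and 92.1% in HKO. The lowest member ninth had a median score of 36.4% in WT and 26.6% in HKO. In WT, depth also changed along these steps, with medians of 6715.5, 18055 and 29469 UMIs in ninths 7, 8 and 9. In HKO the medians were 8958, 14327 and 13570 UMIs. The median mitochondrial share was 6.86%, 10.8% and 11.6% in the same WT ninths and 12.7%, 13.7% and 12.7% in the HKO ninths. The WT ninth nearest the cut was therefore the shallowest of the members and the lowest in mitochondrial RNA, and the part of depth in the results below was not tested beyond the alternatives given in the closing section.

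**Figure D1:**
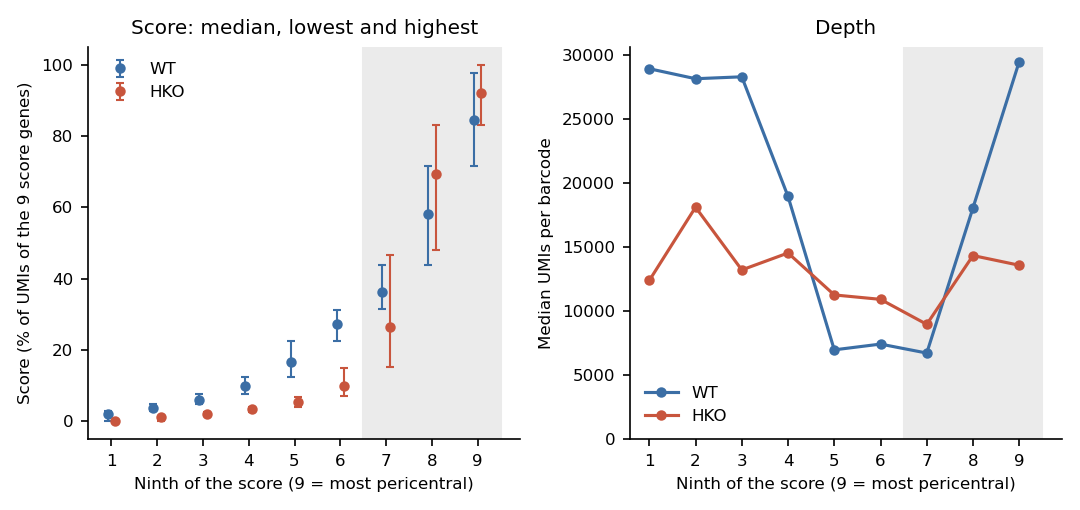
Left, score (percent of the UMIs of the 9 score genes that come from the 4 pericentral ones) in each ninth of the score, with points at the median and bars from the lowest to the highest barcode, and right, median UMIs per barcode in each ninth, for WT (blue) and HKO (red). Grey shading marks the member ninths 7 to 9, where the WT median depth runs from 6715.5 to 29469 UMIs and the HKO median from 8958 to 14327 UMIs.

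Genes outside the score were first compared between the pericentral and the periportal group of the same library. Because the groups were cut on the score, genes that follow the score had to differ, so these ratios describe the members and are not tests. Depth and the mitochondrial share also differed, with medians of 16360.5 UMIs and 9.67% in the pericentral against 28301 UMIs and 14.3% in the periportal group of WT, and of 11765 UMIs and 13.1% against 14960 UMIs and 14.0% in HKO. Barcodes under 10000 UMIs were 38.7% against 13.4% in WT and 41.1% against 20.7% in HKO, and the part of depth in single ratios was not tested, apart from the alternatives on depth. Of 7008 genes with a mean of at least 10 CPM over both groups in WT, 140 (2%) were higher by 2-fold or more and 54 (0.771%) lower by 2-fold or more in the pericentral group. In HKO, 158 (2.32%) of 6814 genes were higher and 56 (0.822%) lower by that fold. Scaling each group to the median gene in place of total UMIs gave 120 higher and 75 lower in HKO, since the median log2 ratio of all genes was 0.14 in WT and 0.15 in HKO. Of 6663 genes compared in both libraries, 5029 (75.5%) had the same direction, 100 (1.5%) were at least 2-fold higher in both, 31 (0.465%) at least 2-fold lower in both, and 0 (0%) were 2-fold in opposite directions. The 100 shared genes were 84.0% of the 119 WT and 68.5% of the 146 HKO genes on the higher side. The 31 were 67.4% of the 46 WT and 66.0% of the 47 HKO genes on the lower side.

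Serpina7, which encodes thyroxine-binding globulin and lies on chrX:139079257-139085236 (GRCm38), stood at 192 CPM in the pericentral and 18.6 CPM in the periportal group of WT, and at 74.3 and 2.42 CPM in HKO. This was 10.3-fold (95% interval 8.93 to 12.1) in WT and 30.7-fold (17.3 to 60.0) in HKO. A single barcode held 49.0% of the WT periportal UMIs of Serpina7, and without the highest barcode of each group the ratios were 19.5 and 43.0, outside the printed interval in WT. Tox (chr4:6686353-6991557), a transcription factor best known from T cells, stood at 116 against 5.88 CPM in WT, a ratio of 19.7 (15.3 to 25.8). In HKO Tox stood at 86.6 against 3.63 CPM, a ratio of 23.9 (14.9 to 40.7). The Tox UMIs came from 157 WT and 112 HKO members, and the highest barcode held 5.28% and 4.75% of them. By ninth, Tox went from 48.5 over 99.9 to 155 CPM among WT members and from 25.6 over 82.7 to 141 CPM among HKO members, so its level followed the score in both libraries. Lymphocyte markers were also higher in the pericentral than in the periportal group, with 13 genes summing to 59.3 CPM in the pericentral and 8.08 CPM in the periportal group of WT and to 24.2 and 8.27 CPM in HKO, and in the middle group they summed to 44.6 CPM in WT and 260.0 CPM in HKO. In barcodes under 3000 UMIs, Tox was at 24.0 CPM in WT and 156 CPM in HKO, the latter above the level in HKO members. Among barcodes with no marker of another cell type, the log2 ratio of Tox was 4.17 in WT and 4.20 in HKO, beside 4.30 and 4.58 with all members.

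The other genes highest in the pericentral group of both libraries by the naming rule were Cyp2c50, Hbb-bs, Tenm3, Cyp7a1, Lect2, Fitm1, Oat, Aldh3a2, Sult2a8 and Rgn, of which Hbb-bs, a globin of erythrocytes, is treated with the other haemoglobins. Lect2, a secreted hepatokine, stood at 168 against 22.4 CPM in WT and 145 against 11.3 CPM in HKO, ratios of 7.51 and 12.9. Fitm1, a protein of the endoplasmic reticulum that promotes lipid droplet formation, had ratios of 6.50 and 12.7. Rgn, the gluconolactonase regucalcin, was at 652 CPM in WT and 687 CPM in HKO members, and its ratios were 4.72 and 8.65. Aldh3a2, the fatty aldehyde dehydrogenase, had ratios of 5.58 and 8.44, Sult2a8, a hepatic sulfotransferase, of 5.29 and 7.18, and Tenm3, a teneurin adhesion protein, of 8.10 and 10.3. Each of these 6 genes had the higher ratio in HKO, although the Tenm3 intervals overlapped. The periportal group of HKO had a pooled score of 1.13% against 3.63% in WT, so it held fewer UMIs of pericentral score genes, and the part of this in the higher HKO ratios was not tested.

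On the lower side, Ctsc, the lysosomal protease cathepsin C (chr7:88278085-88310888), stood at 36.9 against 169 CPM in WT and at 43.7 against 209.9 CPM in HKO, ratios of 0.219 and 0.208. Gls2, the liver glutaminase that releases ammonia from glutamine, stood at 94.7 against 275 CPM in WT and at 111 against 351 CPM in HKO. Its ratios were 0.344 and 0.316. For both genes the intervals of the WT and HKO ratios overlapped. Etnppl, which breaks down phosphoethanolamine, had ratios of 0.191 and 0.226, the mitochondrial aldehyde dehydrogenase Aldh1b1 of 0.231 and 0.188, the antitrypsin paralog Serpina1e of 0.230 and 0.236, and the hydroxysteroid dehydrogenase Hsd17b6 of 0.274 and 0.199. Cryl1, Esr1, Ncam2, Plxna2, Atp1b1 and Nnmt completed the 12, with ratios between 0.238 for Cryl1 and 0.464 for Nnmt in WT. Esr1, the estrogen receptor alpha, was at 25.8 and 34.3 CPM in WT and HKO members.

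The steps of the score resolved these genes further. Ctsc went from 84.4 over 44.5 to 12.2 CPM in WT ninths 7, 8 and 9, and from 89.7 over 42.9 to 6.59 CPM in HKO. Gls2 went from 171 over 110.3 to 52.6 CPM in WT, and from 206 over 114 to 29.0 CPM in HKO. Lect2 went the other way, from 79.5 to 221 CPM in WT and from 83.3 to 204 CPM in HKO, and the libraries lay close to each other in each member ninth. At the pericentral end Ctsc and Gls2 were lower in HKO than in WT. There the median score also differed, at 84.6% in WT and 92.1% in HKO. Cyp2c50 was close between libraries only at that end, where it stood at 425 CPM in WT and 419 CPM in HKO in ninth 9, against 249 and 82.5 CPM in ninth 7. In ninth 6, just outside the members, Cyp2c50 was at 213 CPM in WT and 31.5 CPM in HKO, where the median scores were 27.4% and 10%.

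**Figure D2:**
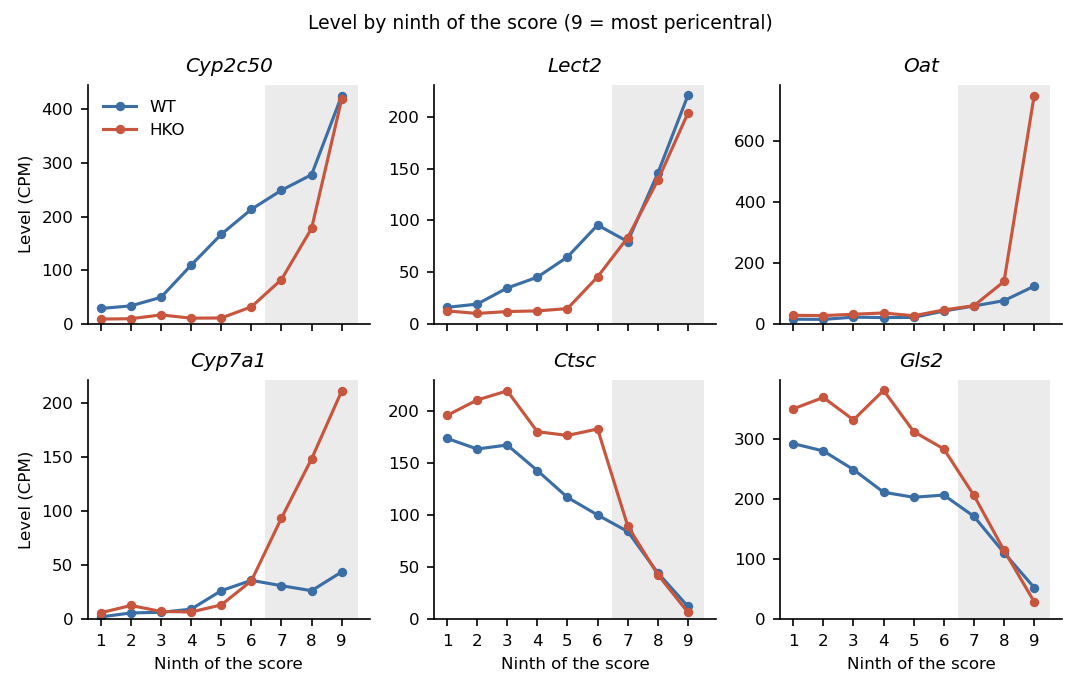
Level in CPM (UMIs per 1000000, summed over the barcodes of a ninth) of 6 genes outside the score in each ninth of the zonation score, for WT (blue) and HKO (red), with the member ninths 7 to 9 shaded and 1 library per line. Lect2 nearly coincides between libraries among the members, Ctsc and Gls2 decline towards ninth 9 in both, and Oat in ninth 9 and Cyp7a1 in ninths 7 to 9 are higher in HKO.

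A list of 39 pericentral hepatocyte genes outside the score had 29 genes analysed in WT and 31 in HKO. Of the WT genes 28 of 29 were higher in the pericentral group and 22 at least 2-fold, with a median log2 ratio of 1.66. In HKO 30 of 31 were higher and 24 at least 2-fold, with a median of 2.13. The exception in both libraries was Tcea3, a transcription elongation factor, with ratios of 0.967 and 0.863. Of 35 periportal genes outside the score, 27 of 31 were lower in WT (median −0.55) and 29 of 34 in HKO (median −0.64). Beside these, 73.9% of all genes in WT and 71.7% in HKO were higher in the pericentral group, with medians of 0.14 and 0.15. Both lists were assembled with earlier results of these data known, and their direction is close to what the score fixes.

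**Figure D3:**
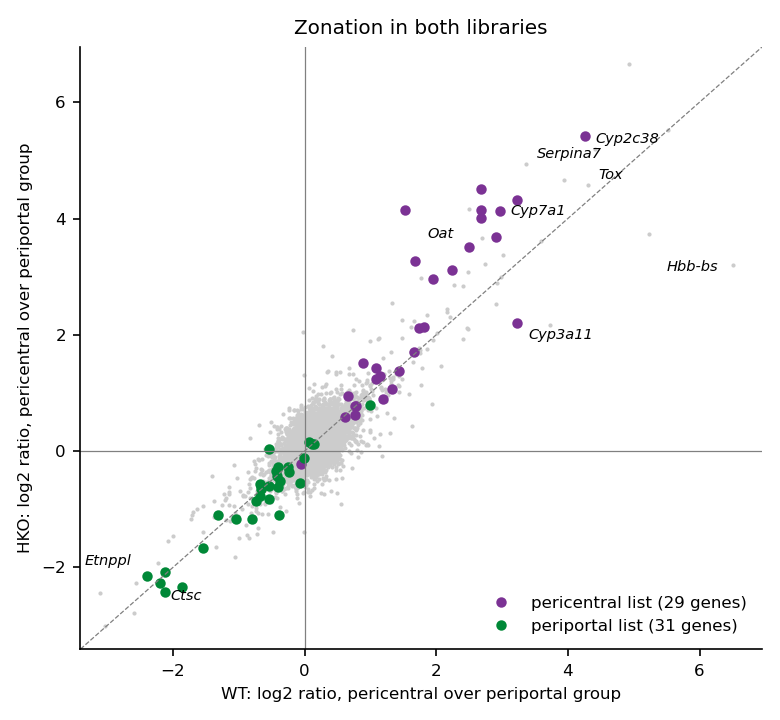
Log2 ratio of the pericentral over the periportal group in WT (horizontal) and HKO (vertical) for the 6663 genes analysed in both, 1 point a gene, with the dashed line marking equal ratios and purple and green points for the 29 pericentral and 31 periportal list genes analysed in both libraries. The purple genes lie in the upper right apart from Tcea3, and most with large ratios lie above the dashed line.

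Among the P450 enzymes outside the score, Cyp2c38 stood at 84.2 CPM in WT and 85.9 CPM in HKO members, 19.1-fold and 42.6-fold above the periportal group. Cyp2c50 (chr19:40089688-40113950) stood at 341 and 234 CPM, with ratios of 9.41 and 20.0. Cyp3a11, the main xenobiotic Cyp3a enzyme of mouse liver, stood at 1270.2 CPM in WT and 2001 CPM in HKO members, and its ratio was larger in WT, at 9.41, than in HKO, at 4.63. Of 24 xenobiotic P450 genes analysed, 17 were higher in the WT and 16 in the HKO pericentral group, 10 and 11 of them at least 2-fold, with medians of 0.61 and 0.42. Of all genes, 73.9% and 71.7% were higher, 2% and 2.32% at least 2-fold, with medians of 0.14 and 0.15. The difference between the libraries was positive for 13 and negative for 11 of the 24. Conjugating enzymes were zoned unevenly. Of 26 glutathione genes analysed, 16 in WT and 20 in HKO were higher in the pericentral group, 4 of them at least 2-fold in each library, with Gstm2, a glutathione transferase, at ratios of 6.43 and 16.2 and its relative Gsta3 at 1.70 and 1.71. The Cyp2c genes are close paralogs, and how reads shared between them were divided affects single members more than their sum.

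Some regulators of the P450 enzymes were also higher in the members. Ahr, the aryl hydrocarbon receptor, stood at 58.1 against 17.4 CPM in WT and 47.1 against 10.9 CPM in HKO, ratios of 3.35 and 4.32. Nr1i3, the receptor CAR, had ratios of 3.53 and 4.39. Por, the reductase that passes electrons to P450 enzymes, had ratios of 2.29 and 1.87. Of the 16 receptors and partners, 16 in WT and 12 in HKO were higher in the pericentral group, with medians of 0.38 and 0.33, beside 73.9% and 71.7% of all genes, so that the HKO share was near that of all genes. By contrast Nr1i2, the receptor PXR, differed little, with ratios of 1.21 and 1.03.

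Some targets of Wnt and R-spondin signalling were higher towards the pericentral end. Tbx3, a T-box factor, was at 17.0 CPM in WT and 23.1 CPM in HKO members against 0.367 and 0.403 CPM in the periportal groups. Its mean over both WT groups was below the minimum level, and its periportal values rest on few UMIs. By ninth it reached 26.1 CPM in WT and 38.2 CPM in HKO at the pericentral end. Axin2, a feedback inhibitor of the pathway, and Lgr5, an R-spondin receptor, were below the minimum level, at 5.18 and 6.17 CPM for Axin2 and 5.18 and 7.31 CPM for Lgr5 in WT and HKO members, and were highest in ninth 9 of both libraries, at 7.39 and 11.2 CPM for Axin2 and 8.81 and 12.5 CPM for Lgr5. Notum, a secreted Wnt inhibitor, had ratios of 3.61 and 4.87. The tight-junction claudin Cldn2 had ratios of 12.1 and 12.2. The core components did not share this pattern, with Ctnnb1 (beta-catenin) at ratios of 1.08 and 1.08 and Apc at 1.05 and 0.879. Of 10 genes of this list analysed, 8 in WT and 7 in HKO were higher in the members, with medians of 0.27 and 0.13. These are near the values of all genes, of which 73.9% and 71.7% were higher, with medians of 0.14 and 0.15.

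Since TCF/LEF factors carry the Wnt signal to DNA, RefSeq promoters (GRCm38.p6, 250 bases before to 50 after a start site) were searched on both strands for the TCF/LEF core ATCAAAG. It was present in 3 of the 82 promoter-matched genes among the 100 that were at least 2-fold pericentral in both libraries (3.66%), in 0 of 25 matched of the 31 lower genes, and in 167 of 5352 matched genes analysed (3.12%). Over all RefSeq genes the share was 4.29%, or 3.73% of promoter windows of this length. The share among pericentral genes was therefore near that of all genes. The 250 bases before the start sites of Lect2, Sult2a8 and, from the pericentral list, Slc1a2 are shown because these genes are described by their levels here and hold the core, printed in capitals. They lie at chr13:56548539-56548788 (minus strand), chr7:14446588-14446837 (minus strand) and chr2:102706188-102706437 (plus strand), and the core begins 32, 203 and 207 bases before the start site. For Slc1a2 the start site is one inside the gene, which spans chr2:102658659-102790784, and not its first. The Sult2a8 start site also lies inside the span of its gene, chr7:14410686-14446769, so part of the stretch shown for Sult2a8 lies within that gene. A match is a description of these letters and not of binding.
Lect2: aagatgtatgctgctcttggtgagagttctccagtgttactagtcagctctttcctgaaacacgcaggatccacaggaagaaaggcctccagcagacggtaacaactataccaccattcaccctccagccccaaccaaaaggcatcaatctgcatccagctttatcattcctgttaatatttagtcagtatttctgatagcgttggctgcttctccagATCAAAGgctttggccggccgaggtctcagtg
Sult2a8: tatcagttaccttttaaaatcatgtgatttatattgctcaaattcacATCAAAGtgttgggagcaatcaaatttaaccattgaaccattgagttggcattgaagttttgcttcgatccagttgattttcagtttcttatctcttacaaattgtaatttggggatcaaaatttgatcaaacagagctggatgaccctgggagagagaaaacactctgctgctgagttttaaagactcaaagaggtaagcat
Slc1a2: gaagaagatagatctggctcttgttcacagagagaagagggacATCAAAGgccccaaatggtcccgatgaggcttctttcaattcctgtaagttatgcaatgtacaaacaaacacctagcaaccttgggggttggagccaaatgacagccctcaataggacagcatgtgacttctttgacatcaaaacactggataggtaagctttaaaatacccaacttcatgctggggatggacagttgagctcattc

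Among lipid genes, Cidea, a lipid droplet protein that enlarges droplets by fusion, was at 30.8 CPM in WT members and 40.5 CPM in HKO members, against 1.01 and 0.403 CPM in the periportal groups. Its UMIs came from 55 WT members and 53 HKO members, and by ninth it went from 4.92 over 9.29 to 57.1 CPM in WT and from 3.20 over 25.5 to 87.0 CPM in HKO. Cidea was thus concentrated at the pericentral end of the group. Its relative Cidec was 7.93-fold and 7.97-fold higher than periportally, and the fatty acid transporter Cd36 2.45-fold and 2.40-fold. The droplet coat protein Plin2, at 709 and 609 CPM, differed less, with ratios of 1.16 and 1.39. Of the lipid droplet and uptake list, 18 of 20 genes were higher in the WT members (median 0.36) and 17 of 18 in the HKO members (median 0.47), beside 73.9% and 71.7% of all genes, with medians of 0.14 and 0.15.

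Cholesterol synthesis showed the same direction, with 17 of 17 genes higher in the WT pericentral group (median 0.64) and 16 of 17 in the HKO pericentral group (median 0.57). Hmgcs1, an early synthase of the pathway, stood at 189 and 168 CPM, with ratios of 3.46 and 2.69. Among de novo lipogenesis genes, 13 of 17 were higher in the members of each library, with medians of 0.39 and 0.43, a share near the 73.9% and 71.7% of all genes. An exception was Acly, which supplies cytosolic acetyl-CoA, with ratios of 0.524 and 0.595. For fatty acid oxidation 27 of 30 genes were higher in the members of each library, with medians of 0.23 and 0.29, beside 0.14 and 0.15 for all genes. Of the hypoxia response, which is of interest because blood loses oxygen on its way to the central vein, 11 of 12 genes were higher in the WT members (median 0.35) and 10 of 10 in the HKO members (median 0.31). The 80 cytosolic ribosomal protein genes analysed were higher in 78 of 80 cases in both libraries, with medians of 0.18 and 0.24.

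Within the members, the 2 genotypes were then compared, which addresses how pericentral hepatocytes differ between WT and HKO livers on the CD-HFD. Of 7089 genes with a mean of at least 10 CPM, HKO members exceeded WT members by 2-fold or more in 20 (0.282%) and fell short of them by 2-fold or more in 74 (1.04%). In the periportal group the corresponding counts were 30 (0.446%) and 67 (0.996%) of 6728 genes. The median log2 ratio of all genes was −0.04 in the pericentral group, where 43.4% of them were higher in HKO and the rest lower, and the list counts that follow are read against that share. These folds compare 2 libraries, and mouse, pool, depth and genotype cannot be told apart.

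Cyp7a1, the rate-limiting enzyme of classical bile acid synthesis (chr4:6265612-6275633), had the highest ratio among genes of at least 50 CPM. It stood at 35.3 CPM (266 UMIs) in WT members and 155 CPM (677 UMIs) in HKO members, a ratio of 4.38 (3.79 to 5.06). At least 1 Cyp7a1 UMI was found in 103 of the 344 WT members and 176 of the 309 HKO members, and in 38 and 108 of them after thinning every barcode to 5000 UMIs. The Cyp7a1 level was 30.9, 26.3 and 43.7 CPM in WT ninths 7, 8 and 9, and 93.7, 149 and 211 CPM in the HKO ninths. HKO was thus higher in every step of the group. In the periportal group Cyp7a1 was low in both, at 4.50 and 8.87 CPM, and in barcodes under 3000 UMIs it was at 19.0 and 39.3 CPM. Over 13 alternative settings the log2 ratio between members, 2.13 as analysed, ranged from 1.82 to 2.33.

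Most genes of bile acid synthesis and transport were lower in HKO members. Of 29 genes analysed, Cyp7a1 and Cyp8b1 included, 6 were higher and 23 lower, with a median log2 ratio of −0.24, where 43.4% of all genes were higher. Cyp8b1, the 12-alpha-hydroxylase that directs synthesis to cholic acid, was at 155 CPM in WT and 243 CPM in HKO, giving a ratio of 1.57 (1.44 to 1.71). Cyp27a1, which opens the alternative pathway, went from 138 to 96.2 CPM, a ratio of 0.700. The bile salt export pump Abcb11 had a ratio of 0.645 (0.597 to 0.698) and the repressor Nr0b2 (SHP) of 0.701 (0.607 to 0.808), whereas the bile acid receptor Nr1h4 (FXR) had 0.961 (0.872 to 1.06).

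Oat, ornithine aminotransferase (chr7:132557478-132576398), stood at 94.7 CPM in WT members and 327 CPM in HKO members, giving a ratio of 3.45 (3.16 to 3.78). In the periportal group Oat was at 16.8 and 28.6 CPM, a ratio of 1.70 (1.36 to 2.13). Among the members Oat was at 58.4 and 59.3 CPM in ninth 7, 75.9 and 139 CPM in ninth 8, and 123 and 748 CPM in ninth 9 of WT and HKO. Slc1a2, the glutamate transporter GLT-1 of hepatocytes near the vein, also differed most at the pericentral end, at 3.41 CPM in WT and 52.0 CPM in HKO in ninth 9, and at 3.85 and 25.1 CPM over all members, a ratio of 6.52 (4.30 to 10.2). Slc1a2 and Oat are known to lie next to Glul in the lobule, and Glul itself, limited by the criteria, was at 144 CPM in WT and 118 CPM in HKO in ninth 9. Csad, which makes taurine from cysteine, was at 301 and 517 CPM, with 354 and 725 CPM in ninth 9. The pericentral list had no common direction between genotypes, with 13 genes higher and 20 lower in HKO of 33 analysed, near the 43.4% of all genes that were higher, and a median of −0.03, which ranged from −0.10 to 0.12 over the settings.

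The metallothioneins Mt1 and Mt2, which bind zinc, were higher in HKO members and in the periportal group. Mt1 stood at 279 CPM in WT and 894 CPM in HKO members, giving a ratio of 3.21 (3.04 to 3.38), and the ratio in the periportal group was 4.90. Mt2 had ratios of 3.49 and 5.32. Among HKO members the level of Mt1 was highest in ninth 7, at 1412 CPM, and lowest in ninth 9, at 579 CPM, while WT members ranged from 252 to 303 CPM. Per barcode, Mt1 varied widely, with a median of 139.5 and an upper quartile of 243 CPM in WT members against 331 and 1164 CPM in HKO members.

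Mat1a, which makes S-adenosylmethionine in hepatocytes, was at 2106 CPM in WT and 4161 CPM in HKO members, giving a ratio of 1.98 (1.93 to 2.02). Its periportal ratio was 2.20. Mup11, a major urinary protein, had 2.13 (1.87 to 2.42), and a single HKO barcode supplied 23.5% of its HKO UMIs, and its paralogs are nearly identical. Phlda1, a pleckstrin-homology protein, had a ratio of 2.01, the zinc finger gene Zfp787 of 1.84, the cold-inducible RNA-binding protein Rbm3 of 1.80, the iron-sequestering lipocalin Lcn2 of 1.77 and the aldo-keto reductase Akr1c19 of 1.77. Tmsb4x, thymosin beta 4, had 1.80, yet it is abundant in leukocytes, was at 502 CPM in HKO barcodes under 3000 UMIs, and had a log2 ratio of −0.33 among members with no marker of another cell type.

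Srebf1, the master regulator of lipogenesis (chr11:60199089-60222581), was at 115 CPM in WT and 30.2 CPM in HKO members, giving a ratio of 0.262 (0.217 to 0.315). At least 1 UMI was found in 261 of the 344 WT members and 95 of the 309 HKO members, and in 160 and 42 of them after thinning to 5000 UMIs. By ninth it was 135, 105 and 114 CPM in WT and 35.2, 28.0 and 28.3 CPM in HKO. The difference was therefore even across the group, and the periportal ratio was 0.252, so it was not particular to the pericentral group by this measure, with a zone difference of 0.06 (−0.30 to 0.42) on the log2 scale.

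Lipogenic genes were mostly lower in HKO members, with 4 of 18 higher, 14 lower, 5 of these at least 2-fold, and a median of −0.42, where 43.4% of all genes were higher and their median was −0.04. Fasn, the fatty acid synthase, went from 131 to 42.7 CPM, a ratio of 0.327 (0.278 to 0.382). The phosphatidate phosphatase Lpin1 had 0.386, the lipogenic cofactor Thrsp 0.458, and the acetyl-CoA carboxylase Acaca 0.491. Scd1, the stearoyl-CoA desaturase, went the opposite way, from 4384 to 7541 CPM, a ratio of 1.72 (1.69 to 1.75). Cholesterol synthesis and uptake genes had no common direction, with 10 higher and 7 lower and a median of 0.03, and Fdft1, squalene synthase, was at 1.67. Lipid droplet and uptake genes were lower in 15 of 20 cases (median −0.16), with Cd36 at 0.736 and the triglyceride lipase Pnpla2 higher, at 1.62.

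Among the lists of metabolic and stress genes, the unfolded protein response had the lowest median, −0.59, with 26 of 26 genes lower in HKO members and 7 at least 2-fold lower. The chaperone Hspa5 (BiP) was at 811 CPM in WT and 424 CPM in HKO members, giving a ratio of 0.523 (0.497 to 0.551). Per barcode the Hspa5 median was 770.2 CPM in WT and 373 CPM in HKO members, and the upper quartile of HKO, 582 CPM, lay just above the lower quartile of WT, 552 CPM. Sdf2l1 had the lowest ratio of the list, 0.247, followed by Hyou1 at 0.323 and Creld2 at 0.358, whereas Selenos and Sel1l, parts of the degradation machinery, were near equal at 0.982 and 0.913. In the periportal group 22 of 26 genes were lower, with a median of −0.54, where 42.3% of all genes were higher and their median was −0.05. Over the 13 settings the pericentral median ranged from −0.66 to −0.55.

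Other lists moved less or rested on few genes. The 6 integrated stress response genes analysed were lower in HKO members (median −0.47), as were 10 of 13 immediate early genes (median −0.45), which are also known to respond to tissue dissociation. Of the urea cycle and ammonia list, 9 genes were higher and 4 lower (median 0.11), with Oat and Slc1a2 as its only members at least 2-fold higher, and Cps1, which opens the cycle, at 0.871. Gluconeogenesis genes were lower in 15 of 19 cases (median −0.18). Fatty acid oxidation had 14 genes higher and 16 lower (median −0.01), and xenobiotic P450 genes 9 and 15 (median −0.14), both near the 43.4% of all genes that were higher. Ribosomal protein genes were higher in 76 of 80 cases, with a median of 0.22 in the pericentral and 0.17 in the periportal group. Nuclear-retained long noncoding RNAs differed between the same members, with 7 genes summing to 7984 CPM in WT and 5160 CPM in HKO members (44773 and 60526 CPM in barcodes under 3000 UMIs) and with 4 of 5 analysed lower in HKO (median −0.34), and their part in the list medians was not tested. The remaining named lower genes were Rgs16, a regulator of G-protein signalling, at 0.246 (0.212 to 0.285), Tcim at 0.338, the antisense transcript Hectd2os at 0.374, the tubulin Tubb2a at 0.376, Serpina7 at 0.387, and AY036118 at 0.274. AY036118 is a transcript that overlaps ribosomal RNA sequence, and it was at 2213 CPM in WT barcodes under 3000 UMIs against 164 CPM in WT members, so shallow barcodes held a larger share of it than the members did.

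**Figure D4:**
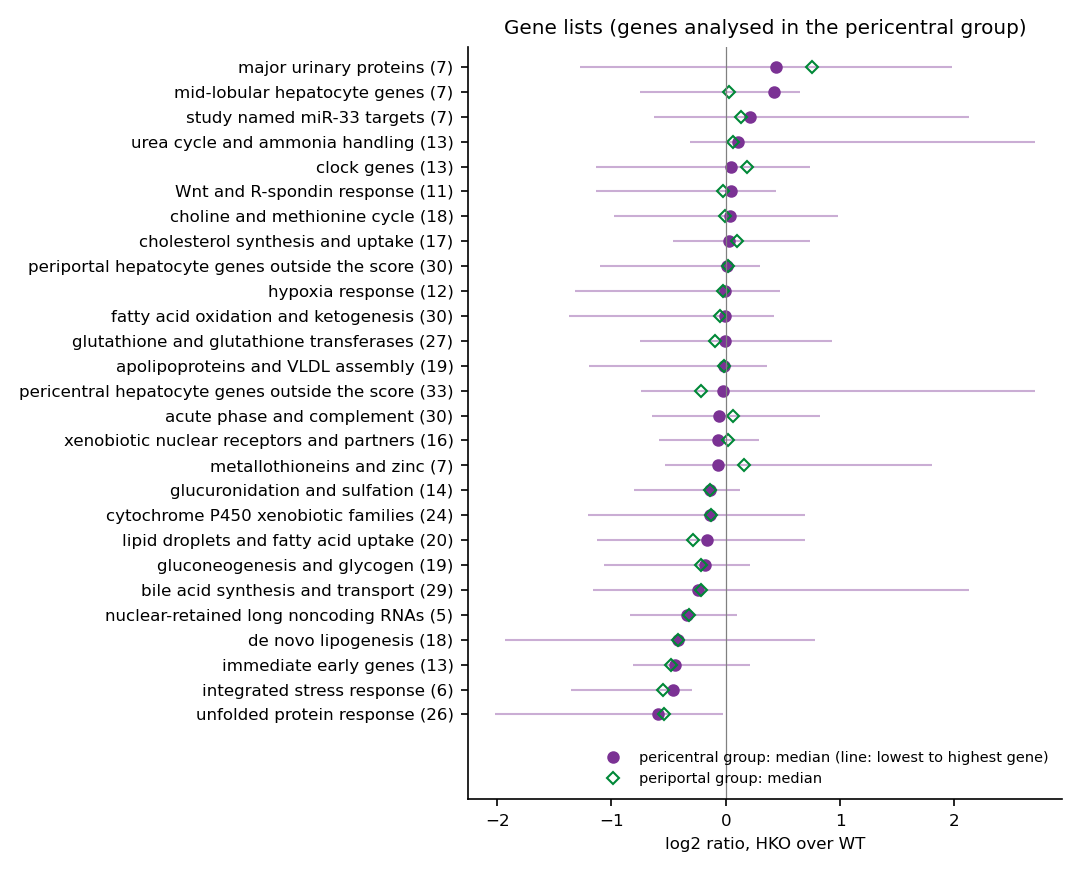
Median log2 ratio of HKO over WT for lists of metabolic, zonation and stress genes in the pericentral group (purple circles, with lines from the lowest to the highest gene) and in the periportal group (green diamonds), with the number of genes analysed in the pericentral group in brackets. Markers of other cell types are not plotted, and of the lists shown the unfolded protein response has the lowest pericentral median, −0.59, and most list medians lie close together in the 2 groups.

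The haemoglobin genes Hba-a1, Hba-a2 and Hbb-bs had the lowest ratios of the named genes, 0.0799, 0.102 and 0.147, and they rest on few barcodes. A single WT barcode held 49.5% of the Hbb-bs UMIs of WT members and a single HKO barcode 79.8% of those of HKO members. By ninth, Hbb-bs was at 2044 CPM in WT ninth 7 and at 9.68 and 5.68 CPM in ninths 8 and 9. Its pericentral over periportal ratio in HKO was 9.22, and 1.99 without the highest barcode of each group. In WT the log2 value of that ratio, 6.51, ranged from 0.03 to 8.36 over the settings. With a minimum of 10000 UMIs the direction turned for each of these 3 genes, to log2 ratios of 3.14, 3.10 and 3.27, and with a score of at least 50% to 0.49, 1.76 and 0.82. The 5 erythrocyte markers summed to 787 CPM in WT and 132 CPM in HKO members. In barcodes under 3000 UMIs they summed to 170 CPM in WT and 4014 CPM in HKO, the opposite direction.

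The macrophage list of 12 genes summed to 16.9 CPM in WT and 34.5 CPM in HKO members (94.0 and 202.6 CPM in barcodes under 3000 UMIs), with 1 gene at 0 in WT members. The lymphocyte list of 13 genes summed to 59.3 and 24.2 CPM, with 1 gene at 0 in WT, and the endothelial list of 14 genes to 23.9 and 30.4 CPM, with 2 at 0 in each. Stellate markers summed to 9.04 and 7.77 CPM, with 3 and 4 of 11 at 0, cholangiocyte markers to 28.7 and 30.2 CPM, with 5 and 2 of 7 at 0, and neutrophil markers to 0.399 and 27.7 CPM, with 3 and 1 of 6 at 0. In the periportal groups of WT and HKO the macrophage list summed to 11.8 and 13.3 CPM, the endothelial list to 17.5 and 16.3 CPM, stellate markers to 4.96 and 8.67 CPM, cholangiocyte markers to 93.4 and 76.2 CPM, and neutrophil markers to 14.4 and 0.807 CPM. Of WT members 59.3%, and of HKO members 71.2%, held no UMI of the 15 marker genes used in the selection. The mitochondrial share had medians of 9.67% and 13.1%. The part of these differences in the genotype ratios was not tested gene by gene, apart from the alternatives without marker-positive barcodes and with a narrower mitochondrial range.

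**Figure D5:**
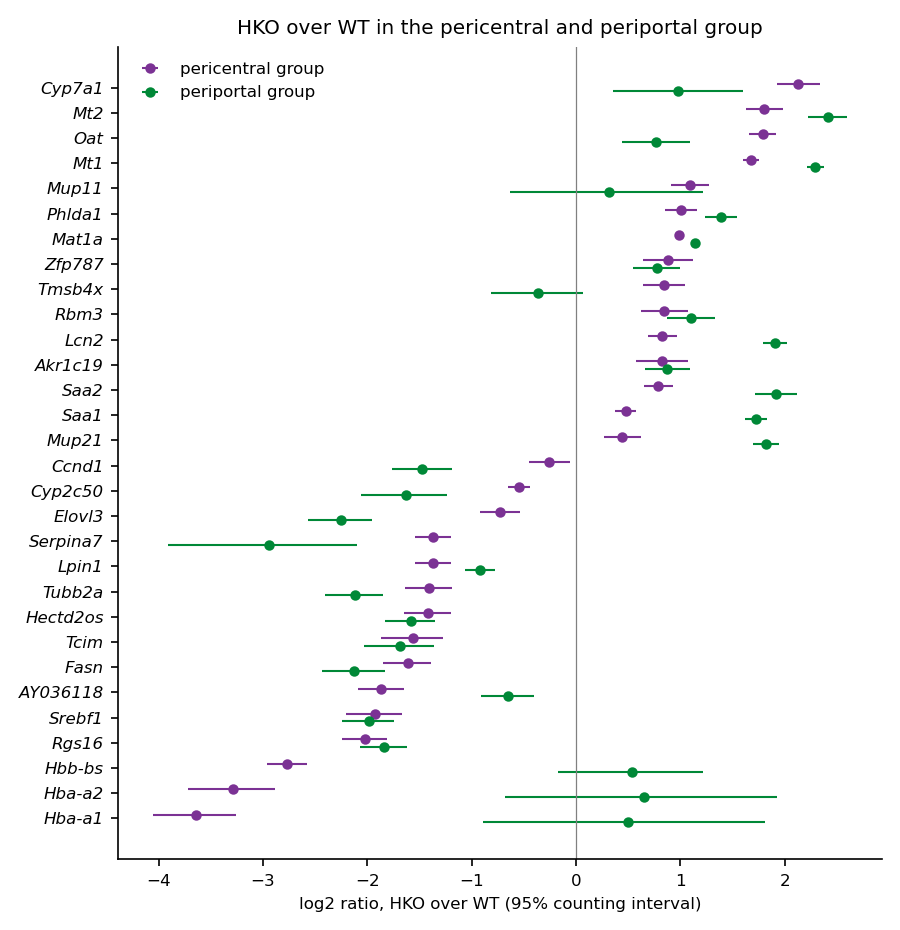
Log2 ratio of HKO over WT in the pericentral group (purple) and periportal group (green) for the genes named for their genotype ratio or for its difference between groups, with 95% counting intervals. Cyp7a1 and Oat lie further right in the pericentral group, Mt1, Mt2, Lcn2 and the Saa genes further right in the periportal group, and Srebf1, Rgs16 and Tcim have overlapping intervals.

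Whether a genotype ratio differed between the pericentral and the periportal group was given as the difference of the log2 ratios with a counting interval. Of 6939 genes, the HKO over WT ratio in the pericentral group was above the periportal one by 2-fold or more for 31 (0.447%) and below it by 2-fold or more for 22 (0.317%). With score limits common to both libraries these counts became 16 and 34, so the balance of directions depends on how the groups are drawn. The median difference over all genes was 0.01, and 51.4% of them had a positive difference. The pericentral list had a median of 0.33, with 22 genes positive, 8 negative and 10 of the 22 at least 2-fold, and 0.37 with common limits. The pooled score was 72.2% in the pericentral against 1.13% in the periportal group of HKO, and 70.2% against 3.63% in WT. The 4 pericentral score genes, on which the groups were cut, had differences from 1.26 for Gulo to 2.04 for Cyp2e1. The part of the selection in the list values was not tested.

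Serpina7 had a difference of 1.57 (0.71 to 2.43), or 1.14 without the highest barcode of each group, below Elovl3, Ccnd1 and Cyp7a1. Its HKO over WT ratio was 0.387 in the pericentral and 0.130 in the periportal group, the latter from 12 HKO UMIs. Elovl3, an elongase of very long chain fatty acids, was at 115 and 69.3 CPM in members and at 94.2 and 19.8 CPM periportally, a difference of 1.53 (1.17 to 1.88). Elovl3 was 1.22-fold pericentral in WT and 3.51-fold pericentral in HKO. Ccnd1, cyclin D1, had the same shape, with zonation of 1.34 in WT and 3.11 in HKO and a difference of 1.22 (0.88 to 1.56), but only 0.47 with common score limits. Cyp7a1 had a difference of 1.15 (0.53 to 1.77), Cyp2c50 of 1.09 (0.68 to 1.50) and Oat of 1.02 (0.68 to 1.36). For Cyp2c50 HKO was lower in both groups, with a ratio of 0.686 (0.638 to 0.738) in members and 0.322 in the periportal group. The periportal ratios of the 4 pericentral score genes ran from 0.273 for Cyp2e1 to 0.549 for Cyp1a2. The part of the selection in the difference of Cyp2c50 was not tested. The zone differences moved with the settings, from 0.31 to 2.27 for Cyp7a1, 1.00 to 2.52 for Serpina7 and 0.75 to 1.65 for Oat.

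On the other side, Saa1, an acute phase serum amyloid A, was at 244 and 339 CPM in WT and HKO members and at 108 and 358 CPM in the periportal groups. The ratios were 1.39 and 3.31, and the difference −1.25 (−1.40 to −1.11). Saa1 and Saa2 are close paralogs, so their single values are uncertain. Saa1 was pericentral in WT, with a zonation of 2.25, and level in HKO, at 0.947. Lcn2 had ratios of 1.77 in the pericentral and 3.76 in the periportal group and a difference of −1.08 (−1.26 to −0.91), and Mup21 had 1.36 and 3.53 and −1.38 (−1.59 to −1.16). Saa2 had a difference of −1.13, a single WT barcode supplied 28.1% of the WT UMIs, and among barcodes with no marker of another cell type the value was 0.33. The acute phase and complement list had 9 positive and 21 negative differences, 3 of them at least 2-fold, but its median was −0.03 beside 0.01 for all genes, of which 51.4% were positive. Over the settings the difference ranged from −1.79 to −0.27 for Saa1, from −1.53 to −0.70 for Lcn2 and from −1.65 to −0.61 for Mup21. The values nearest 0 for Cyp7a1, 0.31, and Saa1, −0.27, were those among barcodes with no marker of another cell type. The other genes named on this side were AY036118 and Hbb-bs, at −1.21 and −3.30, and AY036118 ranged from −1.92 to −0.49 over the settings.

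Since miR-33 was the deleted gene, the genes that the study names as its targets were described in the members together with their sites. The mature strands are shown because the seed (bases 2 to 8, in capitals) sets which transcripts can pair, and RefSeq places them at chr15:82198127-82198147 and chr15:82198167-82198188 (GRCm38.p6, plus strand).
miR-33-5p: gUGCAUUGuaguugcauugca
miR-33-3p: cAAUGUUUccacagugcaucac

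In the 3′UTR of 1 GENCODE transcript a gene, matches to the miR-33-5p seed were searched on the transcript strand as the 8-base site CAATGCAA, the 7-base site CAATGCA and the 7-base site AATGCAA, the last 2 of which lie within the first. The stretches below hold the matches in capitals. They lie at chr4:53033783-53033811 (minus strand) for Abca1, chr5:8966677-8966700 (minus strand) for Crot, chr19:3385478-3385501 (plus strand) for Cpt1a, and chr5:51455728-51455750 (minus strand) for Ppargc1a. They are shown because the levels of these 4 targets in the members follow. The list of targets also held Prkaa1, with 1 match, the 8-base site, and Abcg1, with several matches. Their stretches and levels are not given here.
Abca1: attCAATGCAATGCActtCAATGCAAcga
Crot: tgcaaccaCAATGCAAagtcagat
Cpt1a: gcagttacCAATGCAAttttttac
Ppargc1a: ccccaggcCAATGCAgctaattt

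Abca1, the cholesterol efflux pump, with 3 matches, was at 195 CPM in WT and 232 CPM in HKO members, giving a ratio of 1.19 (1.10 to 1.29). Crot, a peroxisomal carnitine acyltransferase, had 1.12 (1.08 to 1.16) in the pericentral and 0.902 in the periportal group. Cpt1a, which admits fatty acids to mitochondria, went from 256 to 342 CPM, a ratio of 1.34 (1.25 to 1.43). For Ppargc1a, a coactivator of mitochondrial genes, the ratio was 1.16 (0.946 to 1.42), an interval that includes 1. The list used here, of which 7 genes were analysed, also held Abcb11, which the study names among bile acid genes and not as a target. Of these 7, 6 were higher in HKO members and 1, Abcb11, lower, with a median log2 ratio of 0.21 in the pericentral group. Cyp7a1, counted among the 6, had no match in the 3′UTR searched.

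Over all genes analysed with a 3′UTR, 1000 of 6934 (14.4%) held at least 1 match and 121 (1.75%) the 8-base site. Among genes at least 2-fold higher in HKO members, 2 of 18 (11.1%), Slc1a2 and Socs2, held a match and 0 the 8-base site. Among genes at least 2-fold lower, 9 of 68 (13.2%) held a match, Srebf1, Lpin1 and Acaca among them, and 0 the 8-base site. The median log2 ratio was −0.05 with and −0.04 without a match. These medians come from single libraries without replicates.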

How the data were processed

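Single-cell libraries of 1 WT and 1 HKO pool of 3 livers were analysed. The deposited values are UMI counts per gene and barcode, made by the authors with Cell Ranger (version 7.1.0 per the file headers) on mm10, for 30078 WT and 20000 HKO barcodes. Which filter on barcodes was applied is not given in the sources used here. The submitters' processing notes also name R 3.0 and Seurat 3, which were not used here. The authors' cell annotation was not analysed here, so members come from the score. UMIs were summed over the barcodes of a group and scaled to CPM, with Python 3.11.15, numpy 2.4.6, scipy 1.17.1 and pandas 2.3.3. With 1 library per genotype no test was run.

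Genes with a mean of at least 10 CPM over the groups compared were analysed, without the 26 genes used in the selection. Ratios against 0 UMIs used a floor of 3 counts. A difference between 2 log2 ratios carries a normal 95% interval from Poisson counts. The ratio step was tested on simulated data. Genes of at least 50 CPM were named by rule, the 12 highest and 12 lowest for zonation in both libraries and for genotype, and the 6 highest and 6 lowest for the zone difference, beside genes of 34 lists, of which 6 genes are not listed in the files. For genotype and zone difference the direction had to hold without the highest barcode. The members and lists were chosen with earlier results of these data known. Within the lists, the examples were chosen after their values were seen. The alternatives concerned depth, weighting, score limits, score genes, mitochondrial range, markers, scaling, minimum level and single barcodes. A score of at least 50% was an alternative chosen after seeing the data. Gene positions and 3′UTRs came from GENCODE on GRCm38, and promoters and miRNAs from RefSeq on GRCm38.p6. Results on some items are not reported here.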

Additional observations from a re-analysis of the deposited data

How the results depend on the processing

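The number of genes past 2-fold depended mainly on the level and depth of the genes counted. With a minimum of 50 CPM, 57 genes were higher and 22 lower for zonation in WT, 54 and 20 for zonation in HKO, 6 and 28 for genotype in the pericentral group, and 7 and 7 for the zone difference. With a minimum of 1 CPM the same counts were 698 and 204, 860 and 283, 338 and 505, and 522 and 465. Thinned to 5000 UMIs per barcode, 267 genes were higher for zonation in WT and 269 in HKO, 84 were higher and 213 lower for genotype, and 204 and 187 for the zone difference. With barcodes weighted equally the genotype counts were 36 and 170 and those of the zone difference 56 and 45. The lower count of the zone difference became 37 when the score was divided into 4 equal groups in place of 3, and 38 with no marker of another cell type, and score limits common to both libraries gave 16 and 34. With a score of at least 50% no count of genes moved by over 1.5 times. Of 120 counts of genes, 90 stayed within 1.5 times of the value given.

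Of the 111 list medians 61 kept their sign in every setting, and of the 84 values of named genes 78 did. The exceptions among named genes were mostly haemoglobins. With a minimum of 10000 UMIs, the log2 genotype ratio became 3.14 for Hba-a1, 3.10 for Hba-a2, 3.27 for Hbb-bs and 3.10 for the erythrocyte list, and the zone difference 2.52 for Hbb-bs and for that list. Without Cyp2e1 in the score, the zone difference was 3.21 for Hbb-bs and 2.54 for the list. With a score of at least 50%, the genotype ratio was 0.49 for Hba-a1 and the list, 1.76 for Hba-a2 and 0.82 for Hbb-bs, and the zone difference of Hbb-bs 0.28. Among barcodes with no marker of another cell type, Tmsb4x had a genotype ratio of −0.33 and Saa2 a zone difference of 0.33. Scaled to the median gene, the unfolded protein response had a zonation median in WT of −0.0043. The cause was not tested in any of these. No paired analysis was possible because each genotype had 1 library.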

Other observations

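Values of single genes from further lists follow for HKO against WT members. These genes were chosen after their values were seen, and the list medians stood beside a median of −0.04 for all genes. In the clock list, 8 genes were higher and 5 lower of 13 analysed, with a median log2 ratio of 0.05. Arntl, the activator BMAL1, was at 21.1 CPM in WT and 9.60 CPM in HKO members, a ratio of 0.454 (0.315 to 0.642), and Bhlhe40, a clock repressor, had a ratio of 0.516 (0.457 to 0.582). Dbp, an output gene that BMAL1 activates, was at 24.7 and 41.1 CPM, a ratio of 1.66 (1.35 to 2.05), and Tef, a related output factor, had a ratio of 1.37 (1.14 to 1.64). In the periportal group the ratios of these 4 genes were 0.325, 0.612, 2.76 and 2.01, in the same directions. The time of day at which the livers were taken is not given in the sources used here, and its part in these values was not tested.

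In the choline and methionine list, 11 genes were higher and 7 lower among the 18 analysed (median 0.03). Beside Mat1a, Gnmt, which consumes S-adenosylmethionine, was at 659 CPM in WT and 967 CPM in HKO members, a ratio of 1.47 (1.41 to 1.53). Chka, which phosphorylates choline, was at 566 and 288 CPM, a ratio of 0.508 (0.477 to 0.541), and Pemt, which makes phosphatidylcholine from phosphatidylethanolamine, was at 236 CPM in each, a ratio of 1.00 (0.927 to 1.08). Hamp, the iron hormone hepcidin, was at 2043 and 3136 CPM, a ratio of 1.54 (1.50 to 1.57). The apolipoproteins and genes of lipoprotein assembly had 8 genes higher and 11 lower (median −0.02), with Apob at 0.866 (0.847 to 0.886) and Apoc2, a cofactor of lipoprotein lipase, at 1.29 (1.25 to 1.33).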
